A study of Homo sapiens with 12 samples.

Results

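The mutant SPRY2 S112A was compared with wild-type SPRY2 in SW480 ADH cells, an adherent line derived from the SW480 colon carcinoma line. The comparison rests on the 3 arrays titled SPRY2 S112A and the 3 titled SPRY2 WT, 6 of the 12 arrays of the series, which were taken by their titles and not by any measured value. All groups share the same cell line, a culture of 72 h in medium with fetal bovine serum, and total RNA labelled for Affymetrix arrays. The WT cells had been transfected with unaltered SPRY2 and the S112A cells with SPRY2 carrying alanine in place of a serine. The other arrays are 3 Mock arrays, of mock-transfected cells, and 3 arrays of SPRY2 Y55F, which carries phenylalanine in place of a tyrosine. They are used to place the WT and S112A levels, in part by tests at single IDs. They also enter the estimate of spread behind the p-values. The vector, the transfected SPRY2 level and whether a construct was carried by 1 clone or by a pool are not given in the sources used here, so that differences between constructs and between transfected populations cannot be told apart. The values are log2 expression for 24916 Ensembl gene IDs, and no table used here pairs these IDs with symbols. The level of SPRY2, the markers of the labelled cell type and gene lists by function are therefore not analysed here, and single genes are given by ID without a role.

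SPRY2 encodes Sprouty2, an intracellular protein that is induced by growth factor receptor signalling and restrains or redirects signalling through the ERK pathway. Its activity is set by phosphorylation. The tyrosine changed in Y55F is the docking site for the ubiquitin ligase CBL and is needed for the inhibitory action of Sprouty2, whereas the serine changed in S112A is among those phosphorylated by MNK kinases, which slows degradation of the protein. The question asked here is what the loss of that serine does to the expression changes that come with the wild-type protein.

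S112A and WT cells differed at 5243 of the 24916 gene IDs, 21.0%, by limma's moderated test on all 12 arrays (Benjamini-Hochberg adjusted p below 0.05). In S112A cells 2290 IDs, 9.19% of those tested, were higher and 2953 IDs, 11.9%, were lower. The typical difference was small, with a median of 1.35-fold in each direction among the IDs that passed and a smallest of 1.09-fold. The tails ran far beyond that, up to 74.4-fold higher and 56.0-fold lower in S112A cells.

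The balance of the directions turned with the size of the difference. Of the IDs past the test, 43.7% were higher in S112A cells, while among those that also differed at least 2-fold 54.7% were higher, 300 IDs (1.20% of those tested) against 248 (0.995%). A 4-fold difference was reached by 60 higher and 46 lower IDs, and an 8-fold difference by 17 higher and 11 lower IDs. The excess of lower IDs among all calls depended on the scaling. With each array centred on its median 51.7% of the calls were higher, whereas after quantile normalizing again 47.6% were. That centring moved the differences of all IDs upward alike. The share of higher IDs at 2-fold, 58.3% with it, could therefore only rise and is no check of the excess. It was between 51.6% and 57.7% when any 1 WT or S112A array was left out. Over all IDs the median difference was -0.03 on the log2 scale, and centring moved it to 0.01.

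The arrays of both groups were well separated at the IDs with large differences. All 548 IDs with a difference of at least 2-fold passed the test, and at none of them did the S112A and WT arrays overlap. Such a difference is large beside the spread between arrays, so this separation is largely set by the choice of IDs. Over all IDs, whether or not they passed the test, the 3 S112A arrays lay above the 3 WT arrays at 3368 (13.5%) and below them at 5000 (20.1%). The correlation across gene IDs was 0.985 to 0.988 between WT and S112A arrays, 0.998 among the WT arrays and 0.995 to 0.998 among the S112A arrays. The plot of S112A against WT levels shows most IDs near the line of equal level and the large differences on both sides of it.

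**Figure D1:**
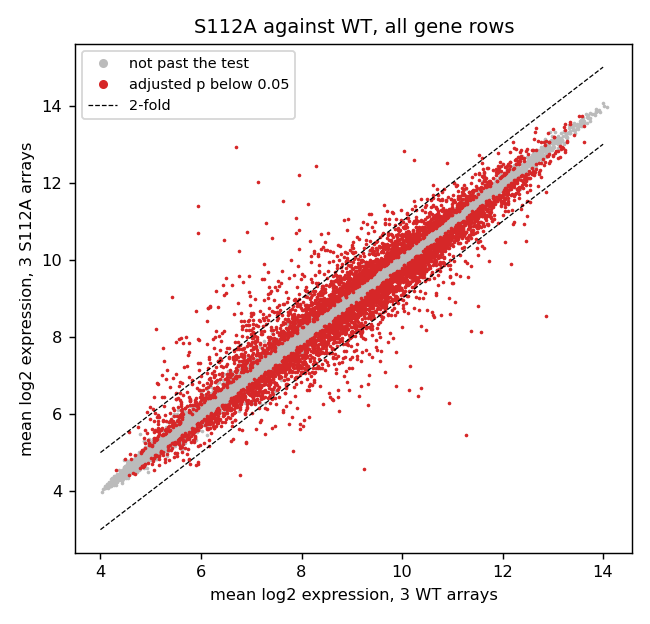
Mean deposited log2 expression of the 3 S112A arrays (vertical) against that of the 3 WT arrays (horizontal) for all 24916 gene IDs, in red those with adjusted p below 0.05 in limma. Beyond the dashed lines, which mark a 2-fold difference, lie 300 IDs above and 248 below.

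The leading rise was that of ENSG00000147676. In the WT arrays it stood at 6.05, 7.78 and 6.28 (log2), and in the S112A arrays at 12.95, 12.91 and 12.90. The Mock arrays gave 12.85, 12.79 and 12.90, and the Y55F arrays 8.68, 8.52 and 8.47. The S112A and Mock arrays were high, with means 0.07 apart on the log2 scale, the WT arrays were lowest, and the Y55F arrays lay between them without overlap. The means were 6.70 ± 0.94 in WT and 12.92 ± 0.03 in S112A cells (SD, n = 3), a 74.4-fold difference with a 95% interval of 5.51 to 6.93 on the log2 scale and adjusted p = 5.30e-08 in limma. WT replicate 2 accounts for most of the WT spread, and even so the lowest S112A array lay 5.12 log2 units above it. In WT cells this ID was at the 43.3 percentile of all IDs and in S112A cells at the 99.4 percentile.

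ENSG00000104413 showed the second largest rise. Its WT arrays gave 5.71, 6.08 and 6.02 (log2) and its S112A arrays 11.27, 11.46 and 11.43. Mock lay at 10.85, 10.98 and 10.94, and Y55F at 6.45, 6.72 and 6.31. Here the S112A arrays were above all others, Mock was just below them, and WT and Y55F formed a low pair that did not overlap. S112A was 1.38-fold above Mock (adjusted p = 0.0167 in limma). The WT level was at the 32.5 percentile of all IDs. The difference between S112A (11.39 ± 0.11) and WT (5.94 ± 0.20, SD, n = 3) was 43.6-fold, with an interval of 5.20 to 5.70 on the log2 scale and adjusted p = 3.15e-11 in limma.

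The largest fall was that of ENSG00000005981. The WT arrays gave 11.16, 11.29 and 11.36 (log2), and the S112A arrays 5.58, 5.33 and 5.48. Mock stood between them at 8.75, 8.70 and 8.86, and Y55F at 6.41, 6.27 and 6.26. The arrays of the 4 groups did not overlap at this ID, with WT above Mock and both mutants below it. In S112A cells this ID was at the 24.4 percentile of all IDs. S112A (5.46 ± 0.13) was 56.0-fold below WT (11.27 ± 0.10, SD, n = 3), with adjusted p = 7.86e-13 in limma. Against Mock, WT was 5.66-fold higher (adjusted p = 2.53e-09 in limma) and S112A 9.90-fold lower (adjusted p = 3.64e-10 in limma), so the WT and S112A groups lay on opposite sides of Mock. The mutants also differed from each other here, with Y55F 1.80-fold above S112A and adjusted p = 1.19e-05 in limma.

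ENSG00000207081 showed the second largest fall. Its WT arrays gave 9.27, 9.17 and 9.30 (log2) and its S112A arrays 4.71, 4.54 and 4.48. Mock was at 4.82, 4.75 and 5.09, and Y55F ranged more widely, at 7.28, 5.77 and 6.87. Only the WT arrays were high at this ID, the Y55F arrays were intermediate, and the S112A and Mock arrays lay near the low end of the scale. The difference of S112A from WT was -4.67 on the log2 scale, with adjusted p = 1.60e-07 in limma. Because the S112A level was at the 4.27 percentile of all IDs and signal over background was not analysed, no fold is given. RMA values compress differences at low levels. The folds of ENSG00000147676, ENSG00000104413 and ENSG00000005981 are ratios of deposited values whose lower level was below the median of all IDs, and they may understate the change.

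**Figure D2:**
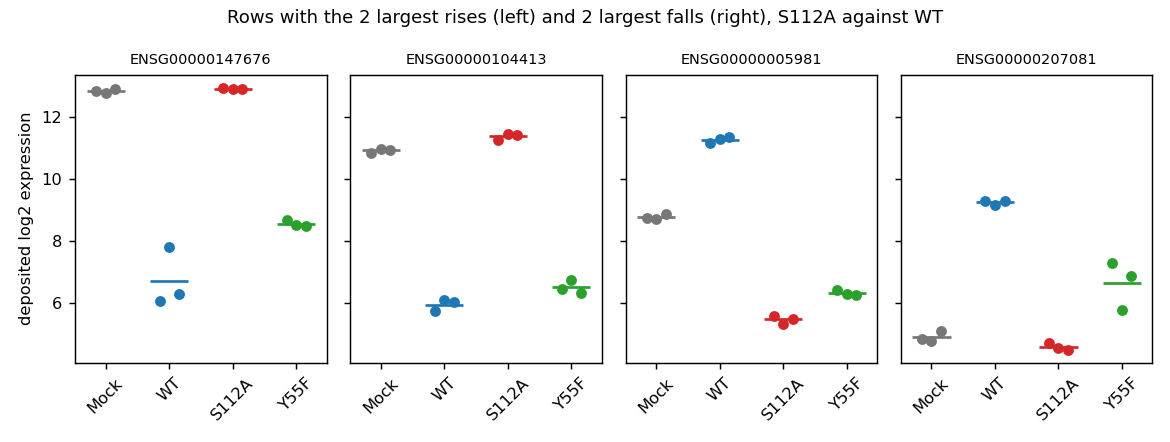
Deposited log2 expression in each of the 12 arrays (points; horizontal lines are means of 3 arrays) for the gene IDs with the 2 largest rises and the 2 largest falls in S112A against WT cells. Mock lies beside S112A at ENSG00000147676 and ENSG00000207081, just below it at ENSG00000104413 and between WT and S112A at ENSG00000005981.

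Mock and Y55F did not enter the difference between S112A and WT, so their levels show how each difference is composed. For each ID the WT mean was set to 0 and the S112A mean to 1, and the Mock and Y55F means were placed on that scale. A Mock position near 1 means that S112A cells had the Mock level and WT cells stood apart, and a position near 0 means the reverse. IDs taken for a large difference between WT and S112A tend to have other groups between them, so intermediate positions are favoured by the choice and the positions are given as a description.

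Among the 15 largest rises the Mock position had a median of 0.82 and ranged from 0.07 to 0.99. At 10 of the 15 Mock lay within 0.25 of the S112A mean, at 3 it was intermediate (between 0.25 and 0.75) and at 2 it lay within 0.25 of the WT mean. The third largest rise was of the intermediate kind, with means of 7.13 in WT, 8.93 in Mock and 12.01 in S112A cells (log2). The eleventh was near WT, with 5.42 in WT, 5.67 in Mock and 9.04 in S112A cells. At most of the leading rises, then, the S112A mean lay near the Mock mean and the WT mean well below both.

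At the 15 largest falls the Mock positions had a median of 0.51 and ranged from 0.14 to 1.30. Mock was intermediate at 10 of the 15, near S112A at 2, near WT at 2 and beyond S112A at 1. The third largest fall had means of 10.93 in WT, 7.72 in Mock and 6.29 in S112A cells (log2). The eighth was near WT, with 11.57 in WT, 11.10 in Mock and 8.12 in S112A cells. The one beyond S112A, the fourth largest fall, was lowest in Mock at 7.22, with 8.54 in S112A and 12.87 in WT cells. At the other 14 falls, as at all 15 rises, the Mock mean lay between the WT and S112A means. No test of the difference in Mock position between rises and falls was made.

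**Figure D3:**
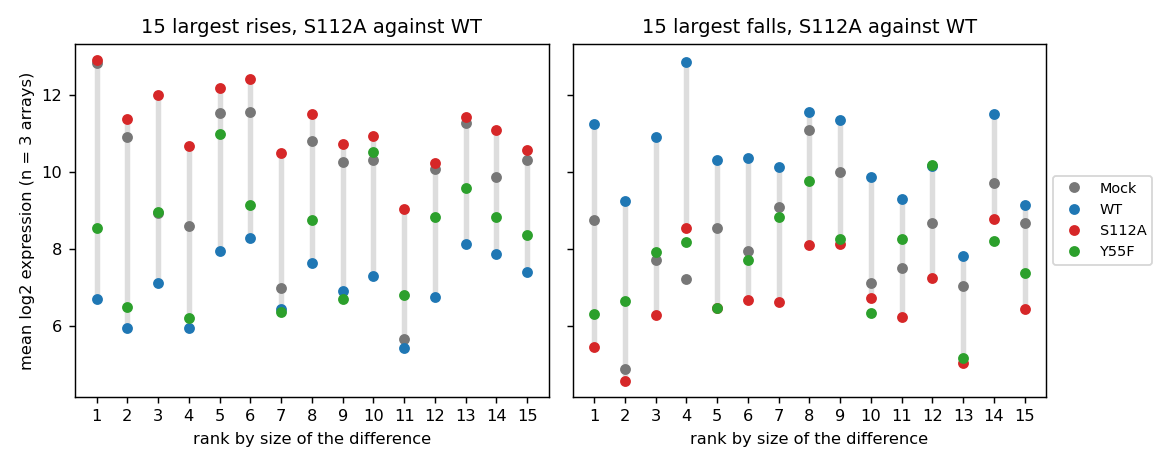
Mean log2 expression (n = 3 arrays per group) of the gene IDs with the 15 largest rises (left) and 15 largest falls (right) in S112A against WT cells, by rank; grey bars join WT and S112A. Mock points lie near the S112A end for 10 of the 15 rises and in the middle for 10 of the 15 falls.

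Over all IDs that differed at least 2-fold, the Mock positions in both directions were nearer to each other. Of the 300 higher in S112A cells, Mock lay within 0.25 of the S112A mean at 93, was intermediate at 137, lay within 0.25 of the WT mean at 57, and lay outside these bounds beyond S112A at 5 and beyond WT at 8. The median Mock position was 0.58. Of the 248 lower in S112A cells, Mock was near S112A at 41, intermediate at 154, near WT at 48, beyond S112A at 4 and beyond WT at 1, with a median position of 0.47. Among the higher IDs 59.0% had a Mock mean closer to S112A than to WT, and among the lower IDs 46.4% did. Intermediate Mock levels were the most numerous class in both sets.

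The medians per array show the same order in every replicate. Over the 300 higher IDs the median log2 level was 7.51, 7.40 and 7.47 in the WT arrays, 8.22, 8.22 and 8.27 in the Y55F arrays, 8.70, 8.59 and 8.68 in the Mock arrays and 9.24, 9.24 and 9.26 in the S112A arrays. Over the 248 lower IDs it was 9.26, 9.17 and 9.27 in WT, 8.57, 8.46 and 8.57 in Mock, 8.19, 8.11 and 8.04 in Y55F and 7.59, 7.68 and 7.61 in S112A arrays. WT and S112A form the ends by the choice of the IDs. Y55F was below Mock in both sets and so lay nearer to WT at the IDs that were higher in S112A cells and nearer to S112A at those that were lower.

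The Y55F positions show this by ID. At the 300 higher IDs the median Y55F position was 0.34 and Y55F was closer to S112A at 35.7%, whereas at the 248 lower IDs the median was 0.70 and Y55F was closer to S112A at 68.5%. Among the 15 largest rises Y55F was closer to S112A at 3, and among the 15 largest falls at 12. No test of this difference between the directions was made.

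**Figure D4:**
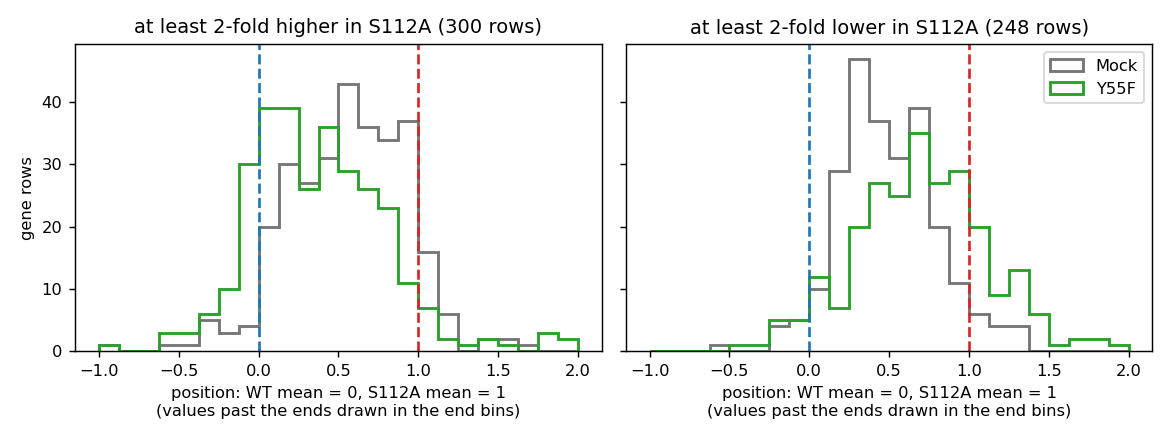
Position of the Mock and Y55F means on a scale where the WT mean is 0 and the S112A mean is 1 (dashed lines), as numbers of gene IDs, for the 300 IDs at least 2-fold higher (left) and the 248 at least 2-fold lower (right) in S112A than in WT cells. The median of Y55F lies at 0.34 on the left and 0.70 on the right, that of Mock at 0.58 and 0.47.

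A count over single arrays used no means, and its classes need not match those by position. Of the 300 higher IDs, the 3 WT arrays alone lay below the other 9 arrays at 72, the 3 S112A arrays alone lay above the other 9 at 83, both held at 108 and neither at 37. Over all IDs the WT arrays lay below the other 9 at 3.74% and the S112A arrays above them at 4.27%. Of the 248 lower IDs, the WT arrays alone stood above the other 9 at 84, the S112A arrays alone stood below at 36, both held at 109 and neither at 19. Over all IDs the corresponding shares were 5.50% and 5.70%. Since these IDs were taken for the difference between WT and S112A, nothing is read from the excess over the shares for all IDs. The class in which both stood apart was the largest in each direction, which the choice of IDs favours. WT alone stood apart more often than S112A alone at the lower IDs and less often at the higher IDs.

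At most IDs with large differences the lower of the 2 groups did not lie at the bottom of the scale. Of the 300 IDs at least 2-fold higher in S112A cells, 42 had a WT mean among the lowest 33.3% of all IDs in WT cells (below 5.99), and 186 had an S112A mean among the highest 33.3% in S112A cells (above 8.73). Of the 248 lower IDs, 27 had an S112A mean among the lowest 33.3% (below 5.96) and 159 a WT mean among the highest 33.3% (above 8.75). The median level of the higher IDs was 7.45 in WT and 9.22 in S112A cells, and that of the lower IDs was 9.21 in WT and 7.63 in S112A cells, where the median over all IDs was 7.28 in WT and 7.24 in S112A cells.

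The share of IDs past the test depended on expression level. The IDs were divided by their mean over the 12 arrays into 10 groups of equal size, from 1 (lowest) to 10. In group 1 the test was passed by 0.723% of 2491 IDs, and in group 5 by 17.9%. Group 8, with mean levels of 9.04 to 9.88, had the highest share at 39.2%, and group 10 had 31.8%. Differences of at least 2-fold were most numerous in groups 6 and 7, with 65 and 59 higher and 56 and 61 lower. The median absolute difference was 0.03 on the log2 scale in group 1 and 0.19 in group 8. The spread between arrays was smallest in group 1, with a median SD of 0.05 in WT and 0.04 in S112A arrays. It was 0.08 and 0.11 in group 8 and lower again in group 10, at 0.06 and 0.07.

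**Figure D5:**
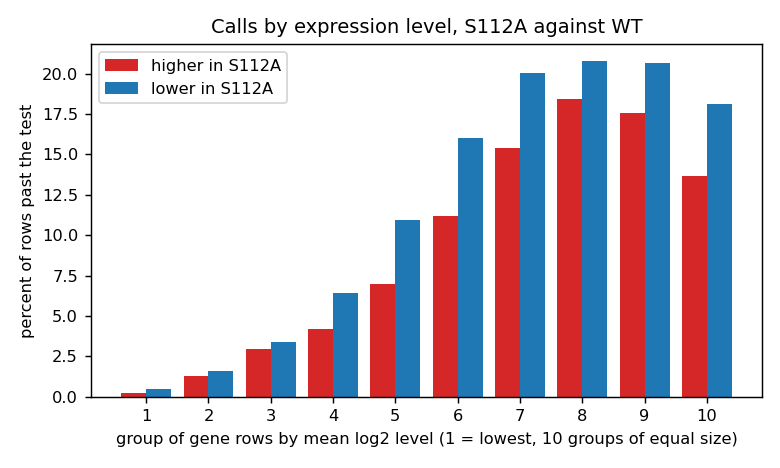
Percent of gene IDs past the test that were higher (red) or lower (blue) in S112A than in WT cells, in 10 groups of equal size by mean log2 level over the 12 arrays (1 is lowest). Both directions together make 0.723% of group 1 and 39.2% of group 8.

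S112A arrays varied more than WT arrays, and this touches the calls because the fit shares 1 estimate of spread. The root mean square SD was 0.13 in S112A and 0.11 in WT arrays. Among the 5243 IDs past the test, 27.9% had an S112A SD over 2 times the WT SD and 14.8% the reverse, where the shares over all IDs were 24.7% and 17.6%. With only the 6 WT and S112A arrays in the fit 4718 IDs passed, of which 4550 were among the 5243. All 6 arrays lay in the order of their groups at 5186 of the 5243, and at the other 57 at least 1 WT array overlapped the S112A arrays. The labels do not say whether the arrays of a group came from separate cultures, and the spread behind the p-values may be technical.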

How the data were processed

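The deposited values are log2 expression levels, 1 per array for each Ensembl gene ID. RMA and affy are named, per the submitters' processing notes, without versions. The array model and annotation release are not given in the sources used here, and the log2 scale was inferred from the range of values. Neither raw intensities nor signal over background were analysed. With 3 arrays per group, precision is limited by their number.

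Groups came from the titles. No 2 arrays held identical values. All 24916 IDs were fitted with limma 3.58.1 in R 4.3.3, with 1 mean per group over 12 arrays (8 residual degrees of freedom), eBayes and Benjamini-Hochberg adjustment over all IDs at 0.05. A fold is 2 to the power of a difference of mean log2 values. Simulated data for S112A against WT had 10 sets, 200 of 24916 IDs changed and independent noise. In them the fit found 91.5% of changes of 1.5-fold, 99.2% of those of 2-fold and 100% of those of 4-fold, with 4.94% false calls. In the real data 21.0% of IDs passed the test and the independence of the arrays is not known, so these rates may not hold there.

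None of the IDs (0 of 24916) matched the RefSeq gene table, whose Ensembl column holds 0 entries. The rule for IDs without symbols was the 2 largest rises and 2 largest falls past the test whose arrays do not overlap. The 15 largest each way, chosen by the same order, are given by rank. The planned check of SPRY2, the gene lists, cell type markers and chromosome summary need symbols and were not run. The comparison, lists and rules were chosen with earlier results of these data known, and the positions of Mock and Y55F and the counts at 2-fold were added after the values were seen.

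Alternatives were fits to 6 arrays, replicate blocks, a filter on low levels, centring, quantile normalization, array weights, a 1.5-fold minimum and leaving out single arrays.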

Additional observations from a re-analysis of the deposited data

How the results depend on the processing

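Array weights raised the number of IDs that differed between S112A and WT from 5243 to 8265, with 3767 higher and 4498 lower, and 5169 of the 5243 were among them; the weights were 6.06 for S112A replicate 2 and 5.31 for Mock replicate 1 against 0.467 to 1.34 for the others, and the cause was not tested. A minimum of 1.5-fold left 1634 IDs, 767 higher and 867 lower, fewer by construction. Every other alternative run left the total within 1.5 times: 4351 to 4874 without 1 WT or S112A array, 5069 with centring, 5447 after quantile normalizing again and 5049 without the lowest 33.3% of IDs. The replicate block gave 5804 IDs as a fixed term and 5743 as a random term, where the correlation within blocks was 0.12. The labels do not say that replicate numbers mark an experiment, so the main fit holds no block. Deviations of same-numbered WT and S112A arrays had correlations of 0.35, 0.04 and 0.06. Arrays with different numbers were not compared, so these values cannot decide whether the numbers pair the arrays. Without 1 WT or S112A array 292 to 320 IDs were at least 2-fold higher and 235 to 274 lower. Without 1 WT, S112A or Mock array, an alternative added after seeing the data, Mock was closer to S112A at 57.7% to 60.7% of the higher and 43.1% to 48.8% of the lower IDs. All 4 IDs named kept their direction and passed the test under every alternative run. They were chosen for the largest differences in these same arrays, so this outcome was nearly set by the choice. Alternatives for gene lists and chromosomes were not run, since no ID has a symbol here.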
